A study of Mus musculus with 8 samples.

Results

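The interaction of genotype and surgery was measured for each gene as the TAC response in Piezo1-Cko hearts (Piezo1-Cko TAC minus Piezo1-Cko sham) minus the TAC response in wild-type hearts (wild-type TAC minus wild-type sham). It was computed for every gene with at least 0.5 FPKM in at least 2 libraries, which were 14817 of the 54532 genes listed, 12423 of them protein-coding. FPKM count sequenced fragments relative to the length of the gene and the size of the library. Differences were taken on the log2(FPKM + 0.5) scale, where the added 0.5 shrinks the changes of weakly expressed genes. Folds of the fitted TAC responses are on that scale too, so for such genes they are smaller than ratios of the printed FPKM. A value above 0 means that the gene went up more, or down less, in Piezo1-Cko than in wild type, and a value below 0 the reverse. A gene was called where its adjusted p (limma, Benjamini-Hochberg over the 14817 genes, two-sided) was under 0.05. It was counted as equal within 2-fold where the whole 95% interval of the interaction lay between -1 and 1, since a p that misses the threshold does not show that responses are alike.

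RNA came from heart tissue of C57BL/6 mice in 4 groups of 2 libraries: wild type after sham surgery, wild type after TAC, Piezo1-Cko after sham surgery and Piezo1-Cko after TAC. The labels give neither age, sex nor time after surgery, and they name neither the Cre line, the cells in which Piezo1 was deleted nor the exons removed. They do not tie the libraries to individual mice either, so the p-values weigh a difference only against the scatter of these libraries, and that scatter may be technical. Heart tissue holds many cell types, and a lower value in such bulk RNA cannot tell fewer cells of a type from less RNA per cell.

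Piezo1 is a mechanically activated cation channel that lets calcium and other cations into a cell when its membrane is stretched. TAC, transverse aortic constriction, narrows the aorta so that the left ventricle pumps against a higher pressure, and the ventricle answers with growth of its muscle cells, a return of fetal genes, fibrosis and a lower expression of genes for oxidative metabolism. Calcium entering the muscle cell can activate the phosphatase calcineurin and the protease calpain, and calcineurin frees NFAT transcription factors to enter the nucleus. An interaction asks whether the deletion alters the answer to pressure, apart from any difference between the genotypes already present without it.

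The libraries held 15574769 to 17313084 reads, of which 17.6% to 24.4% were mitochondrial, and replicate libraries of 1 group differed by 17.3 to 44.2 times counting noise (chi-square per degree of freedom). Summed markers of ventricular muscle were high in all 8 libraries (11596 to 25448 FPKM). WT sham replicate 1 stood apart from its replicate. It alone held atrial muscle genes, with the atrial myosin light chain Myl7 at 394 FPKM against at most 0.443 in the other libraries, Myl4 at 40.4 against at most 1.12 and Sln at 43.6 against 0. It also had 144 FPKM of the oestrogen receptor gene Esr1, against 0.103 in WT sham replicate 2, 0.307 and 0.394 in wild-type TAC, 144 and 179 in Piezo1-Cko sham and 44.4 and 70.0 in Piezo1-Cko TAC. In Esr1 this library therefore went with the Piezo1-Cko libraries and against its own label; as background, some inducible Cre recombinases are fusions to oestrogen receptor sequence, and the labels do not say whether such a line was used. These genes were singled out after their values were seen. Immunoglobulin genes took 624 CPM (reads scaled to the library total) in WT TAC replicate 1 and 19 to 51.8 in the others. Where leaving out WT sham replicate 1 moved a gene's printed interaction by more than 1.5 times and by over 0.2, the value without it is given below.

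The targeted gene itself was read first. Piezo1 (ENSMUSG00000014444, chromosome 8, 122481698 to 122551329, minus strand in GRCm38) was at 2.35 and 3.09 FPKM in wild-type sham, 5.38 and 5.83 in wild-type TAC, 3.83 and 3.23 in Piezo1-Cko sham and 5.24 and 3.89 in Piezo1-Cko TAC. The libraries labelled Piezo1-Cko did not lie below the wild-type ones under sham, and under TAC both lay below both wild-type libraries. Piezo1 rose 1.91-fold with TAC in wild type (log2 difference 0.93, SE 0.185, adjusted p = 0.0312), while the Piezo1-Cko difference was 0.32 (adjusted p = 0.378). The interaction was -0.61 with a 95% interval of -1.23 to 0.0045 and did not pass (adjusted p = 0.916), and it was -0.44 without WT sham replicate 1. A count over the whole gene keeps reads from exons outside a deleted part and from cells that keep the gene, and the gene's span overlaps Ctu2, Gm20388 and Gm26497, so this level does not check the genotype labels.

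Across the transcriptome the TAC response had a similar course in both genotypes, and few genes could be shown to differ. The 2 responses, which have no library in common, had a Pearson r of 0.656 and a Spearman rho of 0.658 across the 14817 tested genes, a description over genes that are not independent. Of these genes, limma called 3 with an interaction above 0 (0.0202%) and 0 with one below 0 (0%). At an unadjusted p under 0.05 there were 739 (4.99%), 385 above 0 and 354 below 0, and limma-voom on the recovered reads called 1 gene, also higher. The gene with the next smallest p had an adjusted p of 0.201. By interval, 8961 genes (60.5%) were equal within 2-fold. The median size of the interaction was 0.213 regardless of sign, its median standard error 0.270 and the median half-width of its interval 0.635. Only 13 genes had an interval that lay wholly beyond 2-fold.

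Each genotype was also read on its own. TAC raised 648 genes (4.37%) and lowered 968 (6.53%) in wild type, and raised 77 (0.52%) and lowered 40 (0.27%) in Piezo1-Cko, and 98 genes were called in the same direction in both. These unequal counts do not show that the responses differed, which is what the interaction tests, and they hung on single libraries. The wild-type total of 1616 was 83 without WT sham replicate 1 and 25 without WT sham replicate 2, 53 without WT TAC replicate 1, 122 without the first Piezo1-Cko sham library and 159 without the other, since all groups share 1 estimate of spread. The Piezo1-Cko total of 117 was 0 without any 1 of the 4 sham libraries and 4 without Cko TAC replicate 1.

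**Figure D1:**
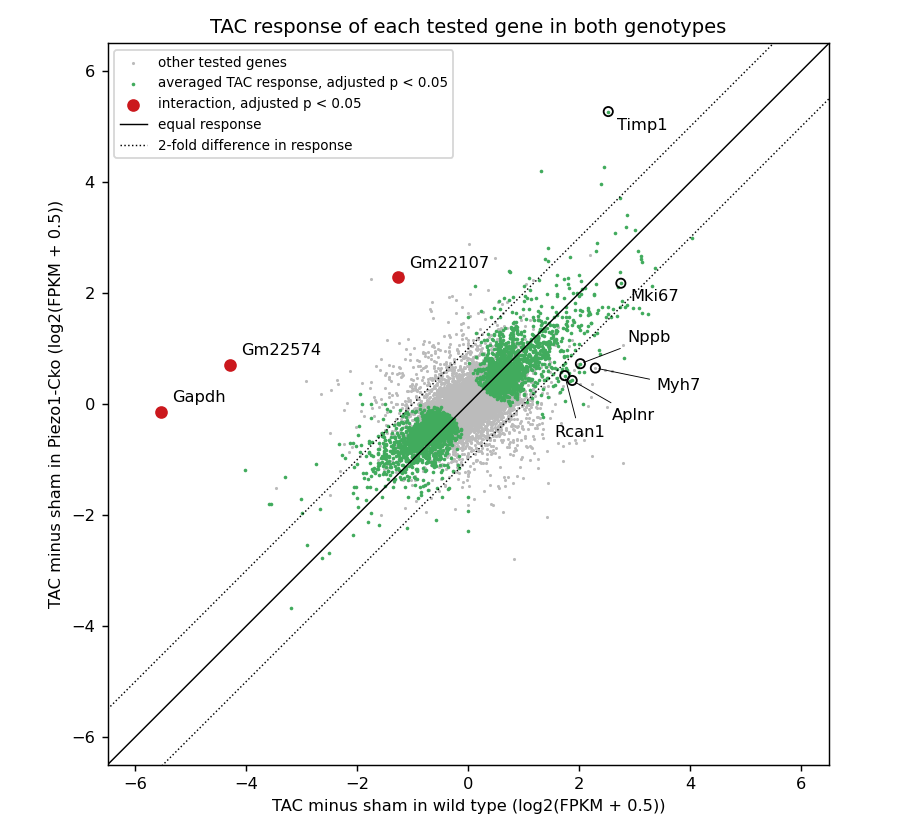
Each point is 1 of the 14817 tested genes, with the TAC minus sham difference in wild type on the x axis and in Piezo1-Cko on the y axis, both in log2(FPKM + 0.5). Most points lie between the dotted lines that mark a 2-fold difference between the responses; the 3 called genes (red) lie above them, and circles mark 6 genes described in the text.

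Gapdh was the only called gene with more than a few reads. It encodes a glycolytic enzyme that is often used as a reference gene in expression assays (ENSMUSG00000057666, chromosome 6, 125161715 to 125166467, minus strand in GRCm38, overlapping Iffo1). Its values were 81.1 and 122 FPKM in wild-type sham, 1.77 and 1.55 in wild-type TAC, 2.31 and 2.84 in Piezo1-Cko sham and 2.32 and 2.25 in Piezo1-Cko TAC. Both wild-type sham libraries were thus high, and the other 6 libraries lay between 1.55 and 2.84 FPKM, with no overlap. Gapdh fell 46.4-fold with TAC in wild type (log2 difference -5.54, SE 0.203, adjusted p = 0.000255) and differed by -0.14 in Piezo1-Cko (SE 0.203, adjusted p = 0.755). The interaction was 5.40 (SE 0.287, 95% interval 4.73 to 6.08, adjusted p = 0.0035). It lay in the starting level: under sham, the Piezo1-Cko minus wild-type difference was -5.03 (adjusted p = 0.000503), and under TAC it was 0.37. Without WT sham replicate 1 the interaction was 5.69, and the call was lost without Cko TAC replicate 1 or 2 (adjusted p = 0.0787 and 0.0739).

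The mouse genome holds many processed copies of Gapdh, so its reads were set beside theirs. Gapdh itself had 4766 and 7166 reads in wild-type sham, 136 and 113 in wild-type TAC, 146 and 180 in Piezo1-Cko sham and 177 and 161 in Piezo1-Cko TAC. Over the 201 listed genes with a transcript at least 90% identical over 50% of the shorter one, the summed reads were 1040 and 1064, 1211 and 1167, 1097 and 1055, and 1033 and 1408 in the same order. These sums thus stayed between 1033 and 1408 reads in all 8 libraries. Not all of the genes in them are processed copies: the protein-coding gene Peli2 gave 259 to 315 of the reads in each library. How reads that fit several of these genes were assigned is not given in the sources used here, so the Gapdh level itself is uncertain. For scale in what follows, 60.5% of all tested genes were equal within 2-fold. Of the other 22 tested genes of glucose uptake and glycolysis, none was called in the interaction and 19 were equal within 2-fold (9 to 17 of the list with 1 library left out), among them the lactate dehydrogenase Ldha (0.094, interval -0.47 to 0.65, and 0.30 without WT sham replicate 1), the enolase Eno1 (0.11, -0.34 to 0.57) and the glucose transporter gene Slc2a4 (0.24, -0.50 to 0.97).

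The other 2 called genes are short RNAs with very few reads, which fall outside the rule for named genes and were named after their values were seen. Their sequences, as GENCODE release M21 gives them for GRCm38, are printed because each call rests on a handful of reads from so short a stretch. Gm22107 is annotated as a small nuclear RNA (chromosome 15, 77840657 to 77840756, minus strand), and Gm22574 as an unconfirmed transcript (chromosome 13, 86044989 to 86045048, minus strand).
Gm22574: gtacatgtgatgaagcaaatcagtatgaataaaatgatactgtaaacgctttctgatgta
Gm22107: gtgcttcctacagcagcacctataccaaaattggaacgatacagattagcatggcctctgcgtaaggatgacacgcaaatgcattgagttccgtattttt

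Gm22574, 60 bases long, had 9 and 7 reads in wild-type sham, 0 and 0 in wild-type TAC, 5 and 3 in Piezo1-Cko sham and 10 and 6 in Piezo1-Cko TAC. Only the wild-type TAC libraries lacked it. Against a floor of 3 reads over that group it was at least 6.81-fold lower with TAC in wild type. Gm22107, 100 bases long, had 1 and 1 reads in wild-type sham, 0 in the next 4 libraries and 4 and 3 in Piezo1-Cko TAC, where it was at least 2.00-fold higher than in Piezo1-Cko sham against the same floor. The fitted interactions of 5.01 (adjusted p = 0.0258) and 3.56 (adjusted p = 0.0435) depend on the 0.5 FPKM added to every value. Both calls were absent with limma-voom (adjusted p = 0.943), without WT sham replicate 1 (0.149 and 0.179) and with a filter of 10 reads, which neither passed. Leaving out any 1 of the 8 libraries lost the call of Gm22107, and any but Cko sham replicate 1 that of Gm22574.

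To ask whether the response as a whole was smaller in Piezo1-Cko, genes were chosen by the TAC response averaged over both genotypes. In this balanced fit its estimate is uncorrelated with that of the interaction. Both tests share each gene's estimate of spread, so the choice favours genes of small spread. Counts by p or by interval within the chosen sets therefore depend on the choice. TAC raised 1503 genes (10.1%) and lowered 1758 (11.9%) by that average. Over the raised genes the median response was 0.71 in wild type and 0.62 in Piezo1-Cko, with a median interaction of -0.11, and 63.6% had the smaller response in Piezo1-Cko. Over the lowered genes the medians were -0.71 and -0.53, with a median interaction of 0.20, and 76.9% had the smaller response in Piezo1-Cko. The median interaction over all 14817 genes was 0.0052.

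Few single genes of these sets could be shown to differ. Among the raised genes 113 (7.52%) had an interaction with an unadjusted p under 0.05, against 4.99% of all tested genes. Of the 113, 92 went toward a smaller and 21 toward a larger response in Piezo1-Cko. Equal within 2-fold were 56.8% of the raised genes, against 60.5% of all tested genes. Among the lowered genes the numbers were 124 (7.05%), 106 and 18, and 66.3% were equal within 2-fold. Gapdh and Gm22574 were the only 2 called.

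The library values show how narrow the margin is. As a median deviation from each gene's mean, the raised set stood at -0.41 and -0.41 in wild-type sham, 0.36 and 0.29 in wild-type TAC, -0.29 and -0.26 in Piezo1-Cko sham and 0.43 and 0.24 in Piezo1-Cko TAC. The TAC libraries of the genotypes overlapped, and both Piezo1-Cko sham libraries lay above both wild-type sham libraries. The lowered set stood at 0.32 and 0.41, -0.41 and -0.28, 0.26 and 0.25, and -0.40 and -0.16 in the same order, again with overlap under TAC and none under sham. The median interaction of the raised genes ran from -0.31 without WT TAC replicate 2 to 0.028 without Cko TAC replicate 2, a change of sign, and was -0.20 without WT sham replicate 1. That of the lowered genes ran from 0.060 to 0.34 over the same libraries and was 0.32 without WT sham replicate 1. Both sets were chosen anew in each of these fits, so they are not the same genes. With 1 library left out the fit is not balanced, and the averaged response and the interaction are no longer uncorrelated. The choice itself can therefore move these medians.

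**Figure D2:**
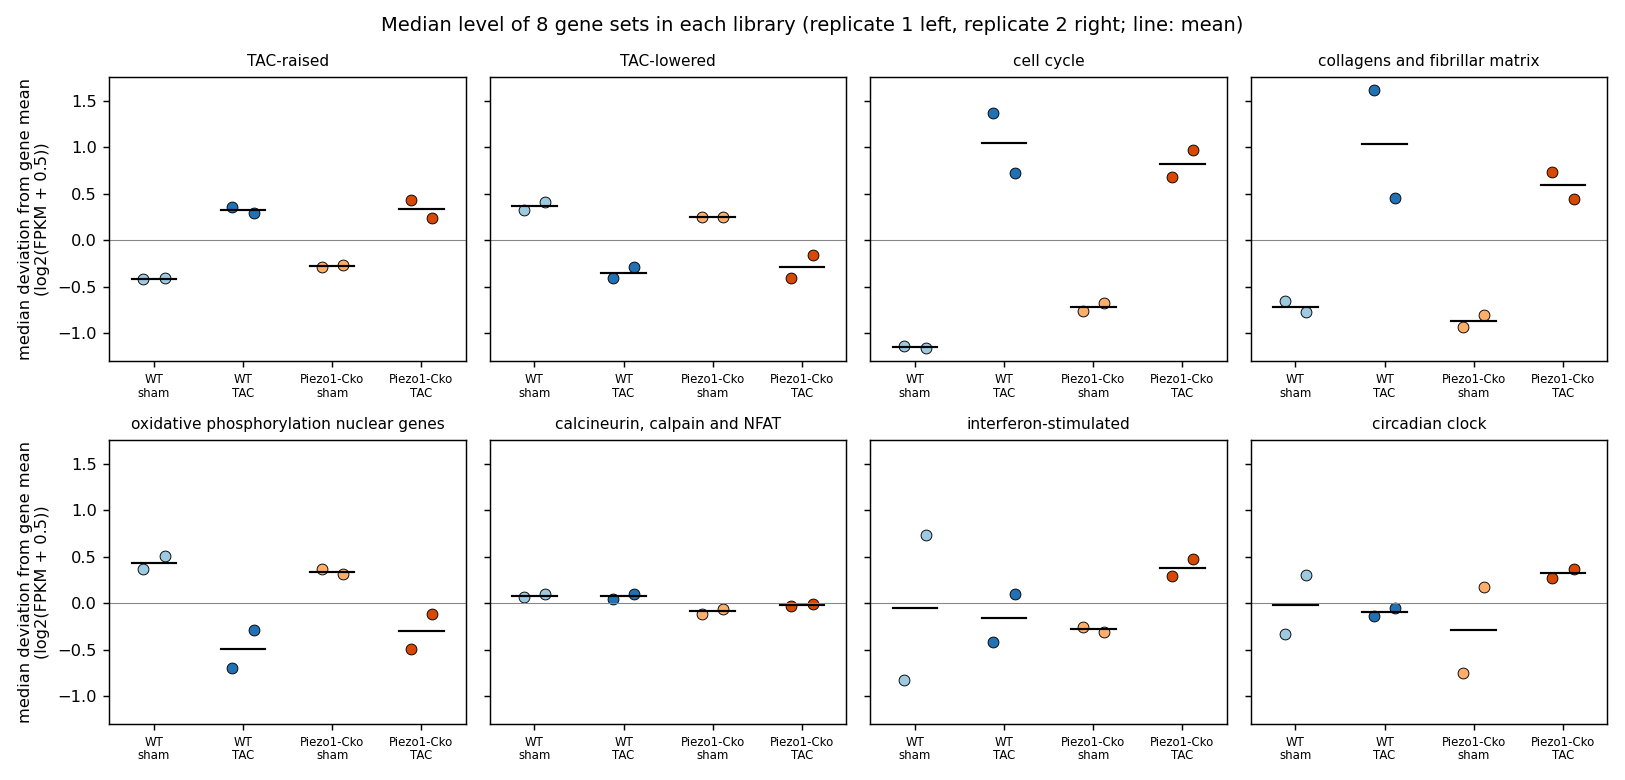
Each panel shows, for the 2 libraries of each group, the median over a gene set of the deviation from the gene's mean over all 8 libraries, in log2(FPKM + 0.5), with a line at the group mean. The raised and lowered sets were chosen by their TAC response in these libraries, so their separation of TAC from sham follows largely from that choice. In the interferon-stimulated set the wild-type sham libraries were the lowest and the highest of all 8, while the replicates of both Piezo1-Cko groups lay close together. In the clock set the replicates of both sham groups lay far apart and those of both TAC groups close together.

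The textbook genes of pressure overload were examined by name. These were 13 genes, among them the natriuretic peptide genes Nppa and Nppb, the stress-responsive muscle gene Ankrd1, the fetal actin and myosin genes Acta1 and Myh7, the adult myosin gene Myh6, the calcineurin inhibitor gene Rcan1 and the matrix genes Postn and Col1a1. The estimates of all 13 had the same sign in both genotypes, and 8 were called in wild type and 1, Mki67, in Piezo1-Cko. Of all tested genes, TAC raised 4.37% and lowered 6.53% in wild type, and raised 0.52% and lowered 0.27% in Piezo1-Cko. Of those called in wild type, Nppa, Ankrd1, Acta1 and Postn just missed in Piezo1-Cko (limma, adjusted p = 0.0691, 0.0626, 0.0681 and 0.0719). Piezo1, Nppb and Rcan1 missed more widely (0.378, 0.437 and 0.476). None was called in the interaction, 7 interactions were below 0 and 6 above, and 1, that of the calcium pump gene Atp2a2, was equal within 2-fold.

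The natriuretic peptide genes encode hormones that stretched heart muscle releases. Nppb was at 219 and 428 FPKM in wild-type sham, 1628 and 951 in wild-type TAC, 629.6 and 348 in Piezo1-Cko sham and 1023 and 586 in Piezo1-Cko TAC. The sham libraries of the genotypes overlapped, and of the TAC libraries only Cko TAC replicate 1 lay within the wild-type range. Nppb rose with TAC in wild type (2.02, adjusted p = 0.0428), the Piezo1-Cko difference was 0.73 (adjusted p = 0.437), and the interaction of -1.29 had an interval of -2.87 to 0.28. It was -0.81 without WT sham replicate 1 and -1.78 without the other wild-type sham library. Nppa, which encodes atrial natriuretic peptide, was at 112 and 116 FPKM in wild-type sham, 1855 and 532 in wild-type TAC, 97.9 and 102 in Piezo1-Cko sham and 742 and 515 in Piezo1-Cko TAC. WT TAC replicate 1 stood far above the other TAC libraries, and the interaction of -0.50 (-2.22 to 1.22) became 0.40 without it.

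Rcan1, which encodes an inhibitor of calcineurin and has an isoform that NFAT itself induces, was at 34.9 and 31.1 FPKM in wild-type sham, 148 and 83.3 in wild-type TAC, 35.5 and 23.5 in Piezo1-Cko sham and 54.8 and 31.3 in Piezo1-Cko TAC. Both wild-type TAC libraries lay above every other library. Rcan1 rose 3.34-fold in wild type (adjusted p = 0.034), its Piezo1-Cko difference was 0.51 (adjusted p = 0.476), and its interaction was -1.23 with an interval of -2.43 to -0.021 that just excluded 0 before adjustment (adjusted p = 0.916). Leaving out WT TAC replicate 1 gave -0.81, and leaving out WT sham replicate 1 gave -1.31. The other genes of the pathway had narrow intervals: of 20 tested genes of calcineurin, calpain and NFAT, 20 were equal within 2-fold, against 60.5% of all genes, and the median interaction was -0.0035. With 1 library left out, which widens the intervals, 17 to 19 were. The catalytic subunit gene Ppp3ca had the largest interaction of them, 0.52 (0.094 to 0.95), and the calpain inhibitor gene Cast (wild type 0.68) and the deacetylase gene Hdac5 (-0.58) were the 2 genes called with TAC in wild type.

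Among the fetal genes, Myh7, the slow myosin heavy chain, was at 24.6 and 24.9 FPKM in wild-type sham, 266 and 56.7 in wild-type TAC, 15.6 and 13.7 in Piezo1-Cko sham and 32.5 and 16.6 in Piezo1-Cko TAC. WT TAC replicate 1 was nearly 5 times the other wild-type TAC library, and the interaction of -1.64 (-3.82 to 0.54) was -0.53 without that library. Myh6, the fast adult form, has a nearly identical sequence, so reads may be divided between the pair in a way that is not stated. Acta1 was at 75.5 and 189 FPKM in wild-type sham, 745 and 1018 in wild-type TAC, 48.7 and 177 in Piezo1-Cko sham and 841 and 1154 in Piezo1-Cko TAC, with overlap between the genotypes under both surgeries and an interaction of 0.54 (-1.60 to 2.68). That interaction was 1.2 without WT sham replicate 1 and ran from -0.39 to 1.46, without Cko sham replicate 1 and 2 in turn. Atp2a2, whose pump returns calcium to the sarcoplasmic reticulum, was at 1467 and 1335 FPKM in wild-type sham, 748 and 1049 in wild-type TAC, 1118 and 1077 in Piezo1-Cko sham and 792 and 687 in Piezo1-Cko TAC, and its interaction of 0.087 (-0.57 to 0.75) was equal within 2-fold, with either sign when WT TAC replicate 1 (-0.16) or 2 (0.33) was left out. Of 17 tested genes of calcium handling, 11 were equal within 2-fold, a share near the 60.5% of all genes, including the L-type channel gene Cacna1c (-0.10), and their median interaction was -0.10. The farthest of them from 0 was the sodium-calcium exchanger gene Slc8a1, at 8.99 and 3.12 FPKM in wild-type sham, 45.8 and 22.2 in wild-type TAC, 5.16 and 5.23 in Piezo1-Cko sham and 16.7 and 3.95 in Piezo1-Cko TAC, with an interaction of -1.85 (-4.19 to 0.50) that was -0.87 without Cko TAC replicate 2.

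**Figure D3:**
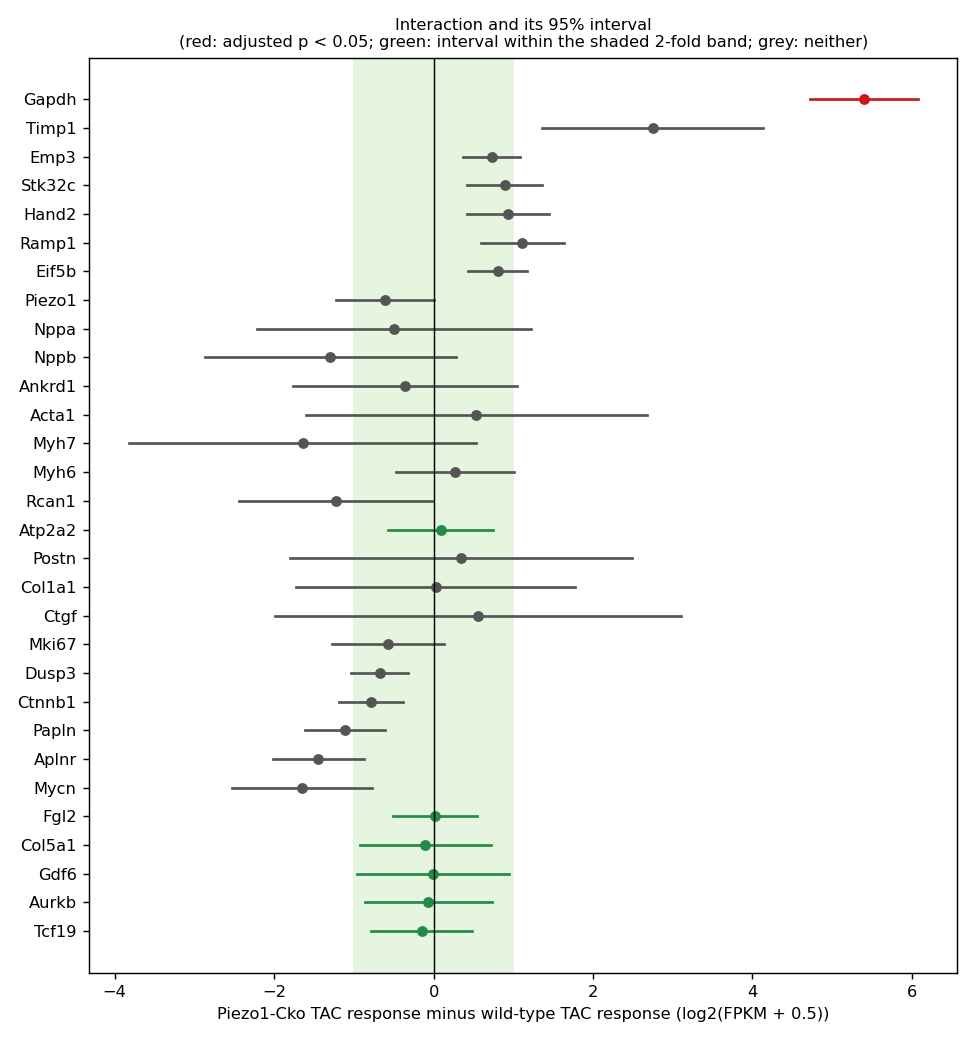
Points give the interaction (Piezo1-Cko response minus wild-type response, log2(FPKM + 0.5)) and lines its 95% interval for named genes: the called gene Gapdh (red), genes of smallest p, textbook genes and genes equal within 2-fold (green). The intervals of Nppa, Ankrd1, Acta1, Postn, Col1a1 and Ctgf reach beyond the shaded 2-fold band on both sides, whereas that of Atp2a2 lies inside it.

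Beyond Gapdh, the genes of smallest p were taken in each direction, 12 above and 12 below 0 with Gapdh counted among them. The other 23 had an adjusted p of 0.916 and did not pass, so they are given as values. In 17 of the 24 the genotypes differed more under sham than under TAC, as they did in 52.8% of the 739 genes with an unadjusted p under 0.05 and in 45.6% of all tested genes. None of the 24 changed sign in any alternative that gave a value. The 24 were chosen by p in these same libraries, so their constant sign follows largely from that choice.

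Timp1, an inhibitor of matrix metalloproteinases that is induced in stressed and fibrotic tissue, had the largest interaction of these 12 genes after Gapdh. It was at 8.16 and 9.37 FPKM in wild-type sham, 45.2 and 61.3 in wild-type TAC, 3.68 and 3.6 in Piezo1-Cko sham and 262 and 96.7 in Piezo1-Cko TAC. The Piezo1-Cko sham libraries were the lowest and the Piezo1-Cko TAC libraries the highest, with no overlap between any of the groups. Timp1 rose 5.75-fold in wild type (adjusted p = 0.0235) and 38.6-fold in Piezo1-Cko (adjusted p = 0.0328), and the interaction was 2.75 (1.36 to 4.13). It was 2.03 without Cko TAC replicate 1 and 2.84 without WT sham replicate 1. Emp3, a membrane glycoprotein gene, was at 23.5 and 22.4 FPKM in wild-type sham, 22.3 and 24.2 in wild-type TAC, 21.5 and 21.9 in Piezo1-Cko sham and 37.9 and 35.6 in Piezo1-Cko TAC. Its Piezo1-Cko TAC libraries stood alone: it rose 1.68-fold in Piezo1-Cko (adjusted p = 0.0437) with a wild-type difference of 0.018, and the interaction was 0.73 (0.37 to 1.09). The kinase gene Stk32c was likewise highest in Piezo1-Cko TAC, at 1.74 and 1.99 FPKM in wild-type sham, 2.36 and 2.19 in wild-type TAC, 1.62 and 1.62 in Piezo1-Cko sham and 3.79 and 4.45 in Piezo1-Cko TAC, with an interaction of 0.89 (0.42 to 1.36).

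In other genes above 0, wild-type sham stood apart. Hand2, a transcription factor of heart development, was at 28.7 and 23.6 FPKM in wild-type sham, 13.2 and 16.7 in wild-type TAC, 14.4 and 14.4 in Piezo1-Cko sham and 15.2 and 16.8 in Piezo1-Cko TAC, so that the wild-type sham libraries stood above the other 6. It fell 1.73-fold in wild type (adjusted p = 0.0306), and the interaction was 0.94 (0.42 to 1.45). Ramp1, a receptor activity-modifying protein that pairs with the calcitonin receptor-like receptor, was at 6.68 and 6.32 FPKM in wild-type sham, 2.69 and 2.29 in wild-type TAC, 3.56 and 4.73 in Piezo1-Cko sham and 3.73 and 3.77 in Piezo1-Cko TAC, also highest in wild-type sham, with an interaction of 1.11 (0.60 to 1.63). Fam107a was highest there too, with 4.25 and 3.48 FPKM in wild-type sham and at most 2.09 in the other groups (1.17). The interactions of Eif5b, AV356131 and Rpl13a were 0.80, 1.75 and 1.05.

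A near-identical copy bears on the values of 2 of these genes. The ribosomal protein gene Rps27 had 4051 and 4162 reads in wild-type sham, 1510 and 1148 in wild-type TAC, 4448 and 3505 in Piezo1-Cko sham and 3585 and 2739 in Piezo1-Cko TAC, while its copy Rps27rt had 765 and 961, 1994 and 2934, 1222 and 1329, and 855 and 1547. The copy was high where Rps27 was low. With all 11 copies added, the totals were 4822 and 5126, 3511 and 4082, 5671 and 4836, and 4440 and 4289, which differ far less between groups than Rps27 alone, whose interaction was 1.43. The heat shock genes Hspa1a and Hspa1b, which also share most of their sequence, had interactions of 2.06 and 2.13. Hspa1a was at 2.63 and 5.91 FPKM in wild-type sham, 0.761 and 0.878 in wild-type TAC, 1.01 and 0.903 in Piezo1-Cko sham and 1.48 and 1.11 in Piezo1-Cko TAC, with WT sham replicate 2 the highest library. Of the 14 tested heat shock genes, 3 had an unadjusted p under 0.05, against 4.99% of all genes (the third was the cochaperone gene Dnajb1, 0.63). Equal within 2-fold were 7, against 60.5% of all genes, and the median interaction was 0.31.

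Below 0, the apelin receptor gene Aplnr had the smallest p. The receptor is found on endothelial cells and heart muscle, and its ligand apelin acts on vessels and contractility. Aplnr was at 10.4 and 11.5 FPKM in wild-type sham, 42 and 41.1 in wild-type TAC, 46.8 and 41.3 in Piezo1-Cko sham and 50.1 and 69.9 in Piezo1-Cko TAC. The wild-type sham libraries lay far below the other 6, which overlapped in part. Aplnr rose 3.66-fold in wild type (adjusted p = 0.00952), its Piezo1-Cko difference was 0.42 (adjusted p = 0.221), and the interaction was -1.45 (-2.02 to -0.88). Under sham it was higher in Piezo1-Cko by 1.95 (adjusted p = 0.038).

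Ctnnb1, which encodes beta-catenin of cell junctions and Wnt signalling, was at 42.6 and 42.4 FPKM in wild-type sham, 78.3 and 79.4 in wild-type TAC, 67.8 and 63.4 in Piezo1-Cko sham and 75.7 and 64.9 in Piezo1-Cko TAC. The wild-type sham libraries were again the lowest, and the interaction of -0.79 (-1.19 to -0.38) was narrow. Ctnnb1 rose 1.84-fold in wild type (adjusted p = 0.0189). Papln, an extracellular matrix gene, was at 1.54 and 1.86 FPKM in wild-type sham, 5.82 and 7.29 in wild-type TAC, 3.56 and 3.8 in Piezo1-Cko sham and 5.53 and 5.88 in Piezo1-Cko TAC and rose 3.2-fold in wild type (adjusted p = 0.00952), with an interaction of -1.11 (-1.61 to -0.61). Lowest in wild-type sham too were the phosphatase gene Dusp3 (-0.68), Tor4a (-0.83), Ston1, an endocytic adaptor gene (-1.2), and the transcription factor gene Mycn (-1.65, -2.53 to -0.77). Arrdc4, of the arrestin family, was at 5.14 and 4.66 FPKM in wild-type sham, 6.62 and 7.62 in wild-type TAC, 6.48 and 7.0 in Piezo1-Cko sham and 4.98 and 5.39 in Piezo1-Cko TAC, low in the first and last of these groups and high in the other 2, with an interaction of -0.84. Ces2e (-1.50) and Wscd1 (-0.95) were lowest in wild-type sham as well, and Mal (-0.92) in Piezo1-Cko TAC. The small nucleolar RNA Snord71 (-3.63) lies within Ap1g1 and had very few reads. It had 1 and 0 in wild-type sham, 1 and 2 in wild-type TAC, 3 and 5 in Piezo1-Cko sham and 0 and 0 in Piezo1-Cko TAC. Its interaction therefore depends on the 0.5 FPKM added to every value.

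**Figure D4:**
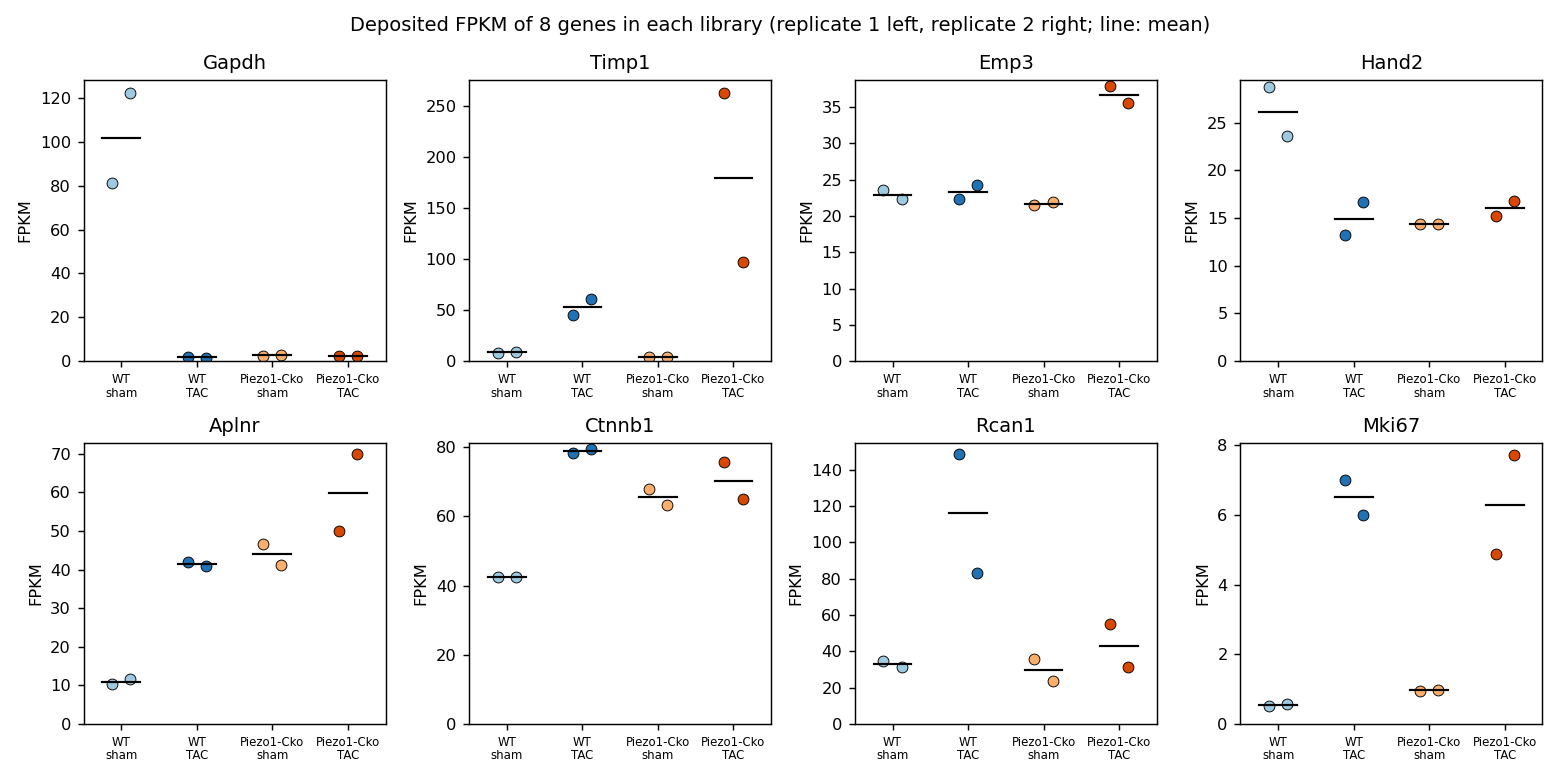
Deposited FPKM of 8 genes in each library, with replicate 1 left, replicate 2 right and a line at the group mean; each y axis starts at 0. Gapdh and Hand2 stand out in wild-type sham, Timp1 and Emp3 in Piezo1-Cko TAC, Aplnr and Ctnnb1 are lowest in wild-type sham, Rcan1 is highest in wild-type TAC, and Mki67 goes up in both genotypes.

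Cell division genes gave the lowest median interaction of the 39 gene lists with at least 8 tested members. Of 28 tested members, 27 rose with TAC in wild type (4.37% of all genes did) and 10 in Piezo1-Cko (0.52% of all genes). The median response was 2.18 in wild type and 1.60 in Piezo1-Cko. All 28 interactions were below 0, with a median of -0.59, but none was called. At an unadjusted p under 0.05 there were 3 (against 4.99% of all genes), and 5 were equal within 2-fold (against 60.5%). Dividing cells switch these genes on together, so they are not independent of each other. Without WT sham replicate 1, 27 of 28 lay below 0, and 8 rose in wild type and 0 in Piezo1-Cko; over the 8 libraries left out in turn, 24 to 28 lay below 0.

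The proliferation marker Mki67 was at 0.503 and 0.574 FPKM in wild-type sham, 7.01 and 6.0 in wild-type TAC, 0.96 and 0.98 in Piezo1-Cko sham and 4.88 and 7.7 in Piezo1-Cko TAC. On the log2(FPKM + 0.5) scale Mki67 rose 6.73-fold in wild type (adjusted p = 0.00867) and 4.52-fold in Piezo1-Cko (adjusted p = 0.0328). Its sham values were low, so both folds were shrunk by the added 0.5. The TAC libraries overlapped and both Piezo1-Cko sham libraries lay above the wild-type ones. The same order held for the whole list, whose median deviation was -1.13 and -1.16 in wild-type sham, 1.37 and 0.72 in wild-type TAC, -0.76 and -0.67 in Piezo1-Cko sham and 0.68 and 0.97 in Piezo1-Cko TAC. Ccna2, which encodes cyclin A, was at 0.241 and 0.328 FPKM in wild-type sham, 6.78 and 3.91 in wild-type TAC, 0.911 and 0.752 in Piezo1-Cko sham and 3.51 and 4.79 in Piezo1-Cko TAC, with an interaction of -1.06 (-1.93 to -0.19). Ube2c, which encodes a ubiquitin-conjugating enzyme of mitosis, had -1.49 (-2.81 to -0.16), and Tpx2, a spindle assembly gene, -0.78 (-1.49 to -0.069). With WT TAC replicate 1 left out, Ccna2 had -0.70 and Ube2c -0.84. The level of Ube2c is uncertain in sham, where it had 17 and 24 reads in wild type while a near-identical copy had 46 and 39. The list's median interaction ran from -0.80, with WT TAC replicate 2 left out, to -0.42, with WT TAC replicate 1 left out, over the libraries left out in turn, and was -1.1 with limma-voom.

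Several genes of that programme were equal within 2-fold on the log2(FPKM + 0.5) scale. Aurkb, a mitotic kinase gene, was at 0.167 and 0.12 FPKM in wild-type sham, 2.32 and 1.98 in wild-type TAC, 0.421 and 0.31 in Piezo1-Cko sham and 2.23 and 3.73 in Piezo1-Cko TAC. With 0.5 FPKM added it rose 4.11-fold in wild type and 3.93-fold in Piezo1-Cko (adjusted p = 0.0161 and 0.0394), with an interaction of -0.064 (-0.86 to 0.73). Its sham values lay below that 0.5, on 7 and 5 reads in wild type and 19 and 14 in Piezo1-Cko. The added amount therefore shrank both rises, and more so in wild type. Uhrf1, which maintains DNA methylation during replication, was at 0.413 and 0.414 FPKM in wild-type sham, 4.7 and 3.22 in wild-type TAC, 0.644 and 0.629 in Piezo1-Cko sham and 4.7 and 3.4 in Piezo1-Cko TAC, with -0.28 (-0.99 to 0.43). Its wild-type sham values also lay below the added 0.5, so its wild-type rise was shrunk more. Also equal within 2-fold were the mitotic genes Foxm1 (-0.13), Bub1b (-0.34) and Cep55 (-0.32), and Pclaf, a partner of the replication clamp (-0.22). Outside mitosis, the growth factor gene Gdf6 (-0.012, -0.97 to 0.94), the secreted protein gene C1qtnf6 (0.035, -0.92 to 0.99) and Tcf19, a nuclear protein gene (-0.15, -0.79 to 0.49), were equal as well. These equality calls are fragile: of the 12 evenly responding genes named by rule, Tcf19 and Fgl2 stayed equal whichever library was left out, Gdf6 and C1qtnf6 lost the call in each of the 8 cases, and the other 8 kept it in 1 to 4 of them. Between 2 of 12 (without WT TAC replicate 2 or Cko sham replicate 1) and 7 of 12 (without WT TAC replicate 1) stayed equal, and 5 without WT sham replicate 1.

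Matrix genes were higher after TAC in both genotypes, with wide intervals of the interaction. Of 24 tested genes of collagens and fibrillar matrix, 15 rose in wild type and 5 in Piezo1-Cko, against 4.37% and 0.52% of all genes, with median responses of 1.61 and 1.34. The median interaction was -0.24, 18 of 24 lay below 0, none was called and 6 were equal within 2-fold (against 60.5% of all genes). WT TAC replicate 1 decided that sign: without it the median was 0.30, with 17 of 24 above 0. Without WT sham replicate 1 it was -0.34, and 3 members rose in wild type and 0 in Piezo1-Cko. Col5a1, of fibrillar collagen V, was at 7.17 and 6.67 FPKM in wild-type sham, 31.4 and 19.1 in wild-type TAC, 5.79 and 6.85 in Piezo1-Cko sham and 24.2 and 18 in Piezo1-Cko TAC and rose 3.38-fold and 3.14-fold, with an interaction of -0.10 (-0.92 to 0.72). The basement membrane collagen genes Col4a1 and Col4a2 had interactions of -0.67 (-1.36 to 0.018) and -0.50 (-1.0 to 0.0064), with -0.42 for Col4a1 without WT sham replicate 1. Col1a1, of the main fibrillar collagen, was at 29 and 15.1 FPKM in wild-type sham, 148 and 52.2 in wild-type TAC, 12 and 16.8 in Piezo1-Cko sham and 77.5 and 48.5 in Piezo1-Cko TAC, with a wide spread within wild-type TAC and an interaction of 0.027 (-1.72 to 1.78), which was -0.43 without WT sham replicate 1. The matricellular gene Postn was at 20.3 and 7.82 FPKM in wild-type sham, 182 and 48.3 in wild-type TAC, 4.88 and 7.29 in Piezo1-Cko sham and 56.4 and 60.4 in Piezo1-Cko TAC. WT sham replicate 1 was above the other sham libraries, and the interaction of 0.34 became -0.32 without it. Fgl2, a fibrinogen-like gene expressed by immune and endothelial cells, was among the most evenly responding genes: it was at 15.4 and 14.2 FPKM in wild-type sham, 44.8 and 43.4 in wild-type TAC, 9.84 and 11.1 in Piezo1-Cko sham and 37 and 27.5 in Piezo1-Cko TAC, rose 2.92-fold and 2.96-fold, and had an interaction of 0.019 (-0.51 to 0.55). Tbc1d10c was the 1 gene of the evenly responding set that fell, 3.59-fold and 3.31-fold, with an interaction of 0.12 (-0.69 to 0.92).

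Nuclear genes of oxidative phosphorylation, the respiratory chain and ATP synthase of mitochondria, were lower after TAC in both genotypes, with a smaller median difference in Piezo1-Cko. Of 37 tested, 28 fell in wild type and 0 were called in Piezo1-Cko by limma, against 6.53% and 0.27% of all genes, with median responses of -0.92 and -0.67. The median interaction was 0.27 and 32 of 37 lay above 0. None had an unadjusted p under 0.05 (4.99% of all genes did), and 21 were equal within 2-fold, a share near the 60.5% of all genes. The median deviation of the list was 0.37 and 0.51 in wild-type sham, -0.69 and -0.29 in wild-type TAC, 0.37 and 0.31 in Piezo1-Cko sham and -0.49 and -0.12 in Piezo1-Cko TAC, so the TAC libraries of the genotypes overlapped. The median interaction ran from 0.10 without WT TAC replicate 1, with 24 of 37 above 0, to 0.46 without WT TAC replicate 2. Leaving out WT sham replicate 1 gave 0.32, with 31 above 0 and none called in wild type. The cytochrome oxidase subunit gene Cox7a1 had the largest interaction, 0.71 (-0.45 to 1.86; 0.27 without WT TAC replicate 1), and Atp5a1 of ATP synthase one of the smallest, 0.035 (-0.50 to 0.57).

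Genes of fatty acid uptake and oxidation, the main fuel of the adult heart, came next. Of 33 tested, 12 fell in wild type and 1 in Piezo1-Cko (6.53% and 0.27% of all genes), the median interaction was 0.082 and 20 were equal within 2-fold, about the 60.5% of all genes. The median was -0.092 without WT TAC replicate 1 and -0.033 without Cko sham replicate 1, and without WT sham replicate 1 it was 0.15, with 1 gene called in wild type and 0 in Piezo1-Cko. The 1 called in Piezo1-Cko was Slc27a1, a fatty acid transport gene, at 28.8 and 28.4 FPKM in wild-type sham, 10.8 and 10.8 in wild-type TAC, 20.2 and 19.9 in Piezo1-Cko sham and 10.7 and 12 in Piezo1-Cko TAC. It fell 2.57-fold and 1.73-fold, and its interaction of 0.57 (0.21 to 0.93) was equal within 2-fold although the interval excluded 0. The carnitine palmitoyltransferase gene Cpt1b had 0.29 (-0.23 to 0.80), and the uncoupling protein gene Ucp3 1.67 with a wide interval of -0.60 to 3.95 (0.75 without WT TAC replicate 1).

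Lists of immune and clock genes had the highest medians, and leaving out single libraries moved them far. The median interaction of 20 tested interferon-stimulated genes was 0.63, with 17 above 0 and 1 at an unadjusted p under 0.05. The median deviation was -0.82 and 0.73 in wild-type sham, -0.42 and 0.10 in wild-type TAC, -0.25 and -0.31 in Piezo1-Cko sham and 0.29 and 0.47 in Piezo1-Cko TAC. The wild-type sham libraries were the lowest and the highest of all 8, and the median was 1.47 without WT sham replicate 1 and -0.14 without WT sham replicate 2. Ifi27l2a, an interferon-induced gene, was at 132 and 267 FPKM in wild-type sham, 89.2 and 162 in wild-type TAC, 123 and 107 in Piezo1-Cko sham and 198 and 285 in Piezo1-Cko TAC with an interaction of 1.69 (0.35 to 3.03), and the antiviral gene Mx1 was at 0.297 and 1.58 FPKM in wild-type sham, 0.682 and 0.689 in wild-type TAC, 0.466 and 0.414 in Piezo1-Cko sham and 1.76 and 1.5 in Piezo1-Cko TAC with 1.30 (-0.049 to 2.65). Usp18, which encodes a protease that removes ISG15 from proteins, had 1.2 (-0.50 to 2.89). Without WT sham replicate 1, Mx1 had 1.99 and Usp18 1.96, and without the other wild-type sham library 0.61 and 0.43.

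Promoter stretches of 3 interferon-stimulated genes are printed to show the letters that many members of this list share; they are the 3 genes with a match before the gene start and the smallest p of the interaction. The interferon response element was searched as GAAA, any 2 bases and GAAA again on both strands, in windows from 250 bases before to 50 after the gene start (RefSeq, GRCm38.p6). It was in 9 of the 16 listed genes with such a window (56.2%) and in 3.44% of 32851 windows. Overlapping matches were counted separately, and a match is a description of letters, not a site. Capitals mark 1 match in each stretch, in Stat2 on the strand opposite to the gene. The windows of Isg15, Stat2 and Bst2 held 3, 1 and 2 matches, and the further ones run into the lower-case letters. The stretches are chr4:156200862-156200921 on the minus strand (Isg15), chr10:128270251-128270310 on the plus strand (Stat2) and chr8:71537568-71537627 on the minus strand (Bst2).
Isg15: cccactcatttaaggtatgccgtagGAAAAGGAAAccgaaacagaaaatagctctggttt
Stat2: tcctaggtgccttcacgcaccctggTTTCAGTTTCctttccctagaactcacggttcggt
Bst2: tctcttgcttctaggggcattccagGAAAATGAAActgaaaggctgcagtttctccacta

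Isg15, which encodes a ubiquitin-like modifier, was at 13.5 and 55.8 FPKM in wild-type sham, 20.1 and 29.8 in wild-type TAC, 21.5 and 22.1 in Piezo1-Cko sham and 48.3 and 43.6 in Piezo1-Cko TAC, with an interaction of 1.22 (-0.67 to 3.12). Stat2, a transcription factor that binds the element as part of a complex, had 0.81 (-0.56 to 2.18), and Bst2, an antiviral membrane protein gene, 0.63 (-0.83 to 2.08). None was called. Without WT sham replicate 1 the values were 2.23, 1.53 and 1.33, and without the other wild-type sham library 0.22, 0.092 and -0.080.

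Chemokine and cytokine genes had a median interaction of 0.57 over 23 tested, and -0.12 without Cko TAC replicate 1. Their median deviation was -0.49 and -0.37 in wild-type sham, 0.18 and 0.31 in wild-type TAC, -0.46 and -0.59 in Piezo1-Cko sham and 0.87 and 0.15 in Piezo1-Cko TAC, highest in Cko TAC replicate 1. The chemokine gene Ccl9 was at 5.48 and 10.5 FPKM in wild-type sham, 5.08 and 14.6 in wild-type TAC, 4.63 and 4.89 in Piezo1-Cko sham and 24.9 and 10.2 in Piezo1-Cko TAC, and Ccl6 at 11.9 and 22.5 FPKM in wild-type sham, 7.64 and 30.3 in wild-type TAC, 11.9 and 11 in Piezo1-Cko sham and 53.4 and 19.5 in Piezo1-Cko TAC. In both, Cko TAC replicate 1 was the highest library, and the intervals of the interactions (-0.43 to 3.36 and -0.74 to 3.85) included 0. With WT TAC replicate 1 left out the interactions went from 1.46 to 0.74 for Ccl9 and from 1.56 to 0.60 for Ccl6. Ccl21a, a lymphoid chemokine gene, was at 28.2 and 26.1 FPKM in wild-type sham, 1.87 and 16.2 in wild-type TAC, 5.03 and 6.17 in Piezo1-Cko sham and 6.34 and 12 in Piezo1-Cko TAC. It had an interaction of 2.74 (0.081 to 5.39), which was 1.33 with WT TAC replicate 1 left out and 4.14 with WT TAC replicate 2 left out. Cko TAC replicate 1 was also highest in macrophage markers, whose 23 genes summed to 516 to 565 FPKM in wild-type sham, 791 to 812 in wild-type TAC, 589 to 596 in Piezo1-Cko sham and 921 to 1251 in Piezo1-Cko TAC, and their part in the chemokine values was not tested. The macrophage list had a median interaction of 0.29 (-0.012 without Cko TAC replicate 1), 18 of 23 above 0 and 0 at an unadjusted p under 0.05. Its interactions ran from -0.86 to 0.99. TAC raised 3 of the 23 in wild type and 3 in Piezo1-Cko, against 4.37% and 0.52% of all genes. Cd68, a lysosomal macrophage gene, was called in Piezo1-Cko (1.64) and not in wild type (0.86), and its interaction of 0.78 had an interval of -0.023 to 1.59, with 0.52 when WT sham replicate 1 was left out.

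Clock genes had a median interaction of 0.65 over 18 tested, with none equal within 2-fold (against 60.5% of all genes). The core activator gene Arntl was at 3.96 and 0.796 FPKM in wild-type sham, 4.02 and 1.39 in wild-type TAC, 3.89 and 1.04 in Piezo1-Cko sham and 0.375 and 0.377 in Piezo1-Cko TAC. Replicates of 3 groups differed severalfold, and both Piezo1-Cko TAC libraries were low. Dbp, a clock output gene with the opposite phase, was at 3.22 and 28.8, 2.37 and 23.0, 1.94 and 51.1, and 35.5 and 49.9 in the same order. The clock list's median was 0.068 without Cko sham replicate 1, 1.28 without Cko sham replicate 2 and 0.97 without WT sham replicate 1. Per1, a repressor of the clock that stress hormones also induce, was at 12.8 and 19.5 FPKM in wild-type sham, 5.68 and 5.56 in wild-type TAC, 2.74 and 4.85 in Piezo1-Cko sham and 2.78 and 3.98 in Piezo1-Cko TAC and fell 2.66-fold in wild type (adjusted p = 0.034), with an interaction of 1.29 (0.31 to 2.27). The clock genes Hlf and Nr1d2 had 1.09 (-0.13 to 2.31) and 1.48 (-0.69 to 3.66), and 0.56 and 0.71 with Cko sham replicate 1 left out. The hour at which hearts were taken is not in the labels, and its part in the interaction was not tested; with an index of 6 clock genes as a covariate, 2 genes were called, Gapdh and Gm22574.

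Endothelial genes, of the inner lining of vessels, had a median interaction of -0.29, with 14 of 19 below 0. Equal within 2-fold were 4, against 60.5% of all genes. Besides Aplnr, the growth factor receptor gene Kdr was at 29 and 27.8 FPKM in wild-type sham, 31.1 and 50.04 in wild-type TAC, 59.98 and 48.8 in Piezo1-Cko sham and 36.2 and 37.5 in Piezo1-Cko TAC, with an interaction of -1.01 (-1.75 to -0.28), and the junction gene Cdh5 was at 52.9 and 59.2 FPKM in wild-type sham, 74.7 and 115 in wild-type TAC, 105 and 111 in Piezo1-Cko sham and 98.2 and 138 in Piezo1-Cko TAC, with -0.62 (-1.41 to 0.18). Leaving out WT TAC replicate 2 gave -0.67 for Kdr and -0.31 for Cdh5. In both, the Piezo1-Cko sham libraries lay above the wild-type sham ones. The summed endothelial markers were 889 to 1441 FPKM in wild-type sham, 843 to 1420 in wild-type TAC, 1528 to 1636 in Piezo1-Cko sham and 1363 to 1698 in Piezo1-Cko TAC, and the list's median was -0.013 without WT TAC replicate 2, with 10 of 19 below 0, and -0.18 without WT sham replicate 1. B and plasma cell genes had a median of -0.45 over 10 tested, which was -0.082 without WT TAC replicate 1, the library with the immunoglobulin reads; Ighm, the heavy chain gene of immunoglobulin M, had -0.58 (-1.39 to 0.23), and -0.23 without that library, Ighd -1.04 and Cd79a, of the B cell receptor, -0.98, and -0.29 without Cko sham replicate 2. Atrial genes had a median of 0.35 over 10 tested, which was 0.12 without WT sham replicate 1; the potassium channel gene Kcna5 had 0.39 (-0.28 to 1.07), which was 0.14 with WT TAC replicate 1 left out, Stard10 0.54 and Myl4 2.73. Without WT sham replicate 1, Stard10 had 0.23 and Myl4 0.14. Genes of the renin-angiotensin, endothelin and adrenergic systems had a median of -0.30 over 15 tested and 0 at an unadjusted p under 0.05; the endothelin receptor gene Ednrb was at 5.43 and 5.58 FPKM in wild-type sham, 7.08 and 10.4 in wild-type TAC, 8.23 and 7.14 in Piezo1-Cko sham and 8.76 and 7.37 in Piezo1-Cko TAC, with an interaction of -0.53 (-1.16 to 0.10) that was -0.27 without WT TAC replicate 2, and the list's median was -0.15 without WT TAC replicate 1.

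**Figure D5:**
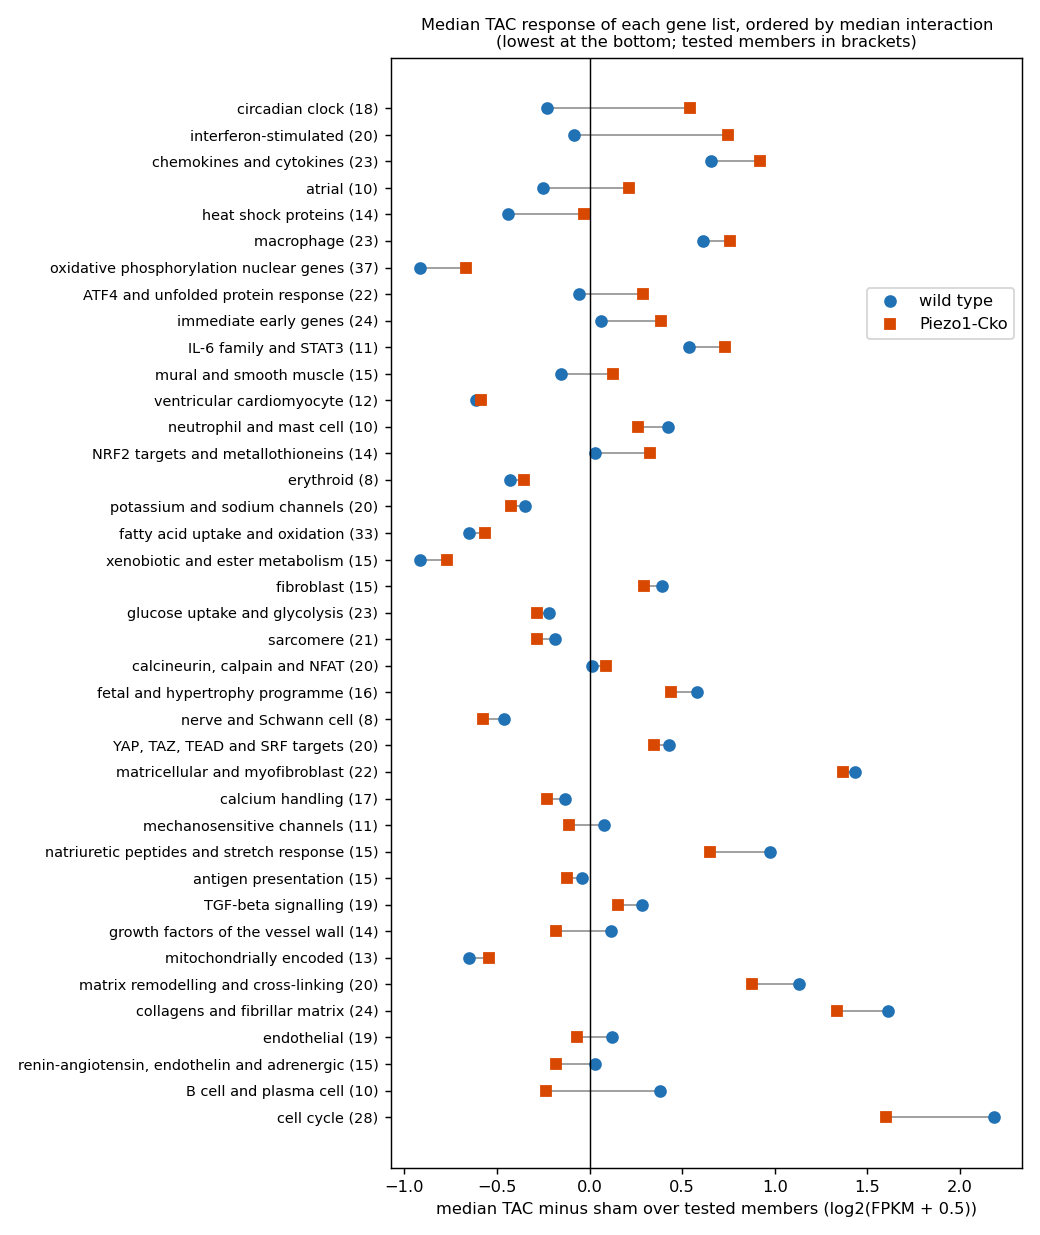
Each row is 1 of the 39 gene lists with at least 8 tested members, and the circle and square give the median TAC minus sham difference over its members in wild type and Piezo1-Cko, in log2(FPKM + 0.5). The lists run from the lowest median interaction (cell cycle) at the bottom to the highest (circadian clock) at the top, and the 2 symbols lie on the same side of 0 in the lists with the largest responses, such as cell cycle, collagens and oxidative phosphorylation.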

How the data were processed

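RNA of mouse heart tissue (Trizol, NEBNext Ultra kit, per the labels) was sequenced. The genome builds mm10 and mm8 and the tools featureCounts 1.5.0-p3, Bowtie 0.12.2 and CASAVA 1.8 are listed in the submitters' processing notes without their roles; strand setting and scaling are not given in the sources used here. The authors deposited 1 table of FPKM for 54532 genes and 8 libraries. All 8 columns matched a sample. Its coordinates equal those of GENCODE M21 (GRCm38) for 98.3% of 54409 shared identifiers. Each FPKM above 0 corresponds to whole reads (100% within 0.01 of a read), so reads were recovered for depth, for near-identical copies and for limma-voom; the implied library sizes were 0.886 to 1.10 times the read totals, so the authors' FPKM had been scaled between libraries.

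limma 3.58.1 (R 4.3.3) was fitted to log2(FPKM + 0.5) of all 8 libraries, with 1 term per group, trend and robust moderation (4 residual and a median of 3.15 prior degrees of freedom), as designed. The steps were tested on simulated data. Groups follow the labels. Copies were found with blastn 2.17.0 among GENCODE transcripts.

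The comparison, the 43 gene lists (761 symbols, 686 tested) and the naming rule were chosen with earlier results of these data known. The rule names 13 textbook genes, the 12 genes per direction that passed or had the smallest p (mean of at least 1 FPKM, no predicted genes), the 12 largest averaged responses among genes equal within 2-fold, and 3 members of each of the 4 lists with the highest and the 4 with the lowest median; other list members are examples chosen after their values were seen. Values of 2 genes so named are not reported here. Lists are described by counts and medians, without a set test. Alternatives covered pseudocounts of 0.1 and 1 FPKM, filters, scalings, limma-voom, moderation, a replicate block, a clock index (the mean log2 of Arntl and Npas2 minus that of Dbp, Nr1d1, Per3 and Tef) and leaving out libraries.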

Additional observations from a re-analysis of the deposited data

Results flagged for a closer look

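The interaction is a test of whether the TAC response differs between the genotypes, and 3 genes passed it. The interaction of Gapdh was 5.40 on the log2 scale, with both wild-type sham libraries far above the other 6. In those 6 libraries Gapdh had fewer reads (113 to 180) than the genes of near-identical sequence together. How shared reads were assigned is not given, so neither level of Gapdh is certain. That of Gm22574 was 5.01, a short RNA without reads in wild-type TAC. The interaction of Gm22107 was 3.56 and rested on 9 reads in all.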

How the results depend on the processing

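The 20 alternatives called 0 to 3 genes higher and 0 lower in the interaction. The count of higher genes was 1 with a filter of 10 reads, with limma-voom and with WT sham replicate 1 and WT TAC replicate 1 both left out, and 0 to 2 when 1 library was left out; Gapdh was the gene called in each of the 3 settings, and without WT sham replicate 2 the 2 were Gapdh and Esr1. The median interaction ran from -0.308 to 0.0277 for the raised genes and from 0.0601 to 0.341 for the lowered genes with 1 library left out. The raised and lowered genes were chosen anew in each fit, which can itself move these medians. The wild-type total of 1616 was 247 without a filter, 704 with the clock index, 1 with both libraries left out and 25 to 1753 with 1 library left out. The Piezo1-Cko total of 117 was 0 without a filter, with the clock index and with both libraries left out, 208 with the 10-read filter, 207 with scaling without mitochondrial genes, 393 with limma-voom, 32 without trend and robust moderation, and 0 to 167 with 1 library left out. The averaged total of 3261 was 1927 without a filter, 945 with both left out and 873 to 3361 with 1 left out, and the equal total of 8961 was 18832 without a filter. Without a filter 27462 genes were tested, so that equal total is not comparable with the main one. With pseudocounts of 0.1 and 1 FPKM the equal total was 7370 and 10815, and it fell whichever library was left out. The alternatives for these 4 totals, and the values of gene lists and their members with 1 library left out, were added after seeing the data.

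Of 62 named genes, 9 changed sign under some alternative. Col1a1 had -0.0197 without mitochondrial genes in the scaling and Acta1 -0.560 with the clock index. With both libraries left out, Nppa had 0.429, Ankrd1 0.301, Myh6 -0.0606, Atp2a2 -0.225 and Stard10 -0.0654. With 1 library left out the range was -0.610 to 1.29 for Postn, -0.720 to 0.774 for Col1a1, -0.388 to 1.46 for Acta1, -1.40 to 0.402 for Nppa, -0.906 to 0.198 for Ankrd1, -0.157 to 0.331 for Atp2a2 and -0.593 to 1.71 for Ctgf. The cause was not tested. The labels number the replicates in each group, and samples of the same number had deviations correlated by -0.022 to 0.19 across genes, so the numbers were not taken to pair them; with the replicate number as a replicate block, 2 genes were called, Gapdh and Gm22574, and the Piezo1-Cko total was 76. Of the largest interval bounds of the 12 evenly responding genes, 102 of 240 passed 2-fold under an alternative. Few reads limit the values of the short RNAs, and 2 libraries a group limit every interval.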

Other observations

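In several gene groups not described above no interaction was called. Besides Piezo1, 6 of the 10 tested mechanosensitive channel genes were equal within 2-fold, and the highest interaction of the 10 was that of Trpv2, 0.43 (0.83 without WT sham replicate 1). The channel gene Trpm4 fell in wild type (-0.69, adjusted p = 0.0471) and had an interaction of 0.081 (-0.49 to 0.65), and Tmem63b, of a family of stretch-activated channels, had 0.16 (-0.22 to 0.53). Of 21 sarcomere genes 13 were equal within 2-fold, with a median interaction of 0.014, and of 19 genes of TGF-beta signalling 12, with a median of -0.15. These shares are near the 60.5% of all genes, and single members lay far from 0, up to 1.56 in the sarcomere list and 1.57 in the TGF-beta list. Targets of YAP, TAZ, TEAD and SRF, factors that respond to cell tension, had a median of -0.070 over 20 tested, with 9 above and 11 below 0 and single values from -1.26 to 2.51, and the median ran from -0.23 to 0.096 with 1 library left out.

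Genes of the stretch response of the sarcomere went both ways. Ankrd23 was at 5.35 and 3.06 FPKM in wild-type sham, 20.4 and 12.2 in wild-type TAC, 5.13 and 3.05 in Piezo1-Cko sham and 7.86 and 3.78 in Piezo1-Cko TAC, rose in wild type (log2 difference 1.84, adjusted p = 0.0426) and had an interaction of -1.42 (-2.84 to 0.0094). Its relative Ankrd2 was at 0.256 and 0.769 FPKM in wild-type sham, 0.44 and 5.77 in wild-type TAC, 0.119 and 0.416 in Piezo1-Cko sham and 26.9 and 6.52 in Piezo1-Cko TAC, with an interaction of 2.89 (-0.25 to 6.03). Neither passed. Genes of the ATF4 and unfolded protein response had a median interaction of 0.26, with 17 of 22 above 0 and none at an unadjusted p under 0.05; the median ran from 0.073 without Cko TAC replicate 1 to 0.46 without Cko TAC replicate 2.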
